A study of Mus musculus with 80 samples.

Results

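The reporters on mouse chromosomes 13, 14 and 18 are 1444 of the 10785 barcoded integrations that passed a minimum of 10 DNA counts in all 8 genomic DNA libraries of their pool. They were chosen by the chromosome they map to, with 541 on chromosome 13, 500 on chromosome 14 and 403 on chromosome 18. The 3 chromosomes were picked because their reporters were low without doxycycline. Their levels without drug against the other autosomes are therefore given as a description and carry no test. The deposited table lists 1456 reporters there, and 12 fell below the DNA minimum (3 on chromosome 13, 9 on chromosome 14 and 0 on chromosome 18). The 7 members just inside that minimum, with a lowest DNA count of 10 to 12, had a median RNA count of 84.5 without drug, and the 8 reporters just outside it, with 7 to 9, had 26.25.

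The host was EBRTcH3, a line of mouse embryonic stem cells with tTA, the tetracycline-controlled transactivator, expressed from ROSA26. All groups share this line, the tTA and the tet-Off reporter, and they differ in doxycycline (dox): none, 0.01, 0.1 or 100 ng/ml for 72 h. There were 4 pools of cells (A, B, C and D), each with its own integrations, and 2 cultures per pool were grown apart and then spread over the 4 doses. RNA and genomic DNA barcodes were counted in each of the 64 resulting libraries. The 4 pools are separate sets of integrations, whereas the 2 cultures come from 1 pool, so p-values from cultures measure only the spread between such cultures. The titles name a tet-Off reporter while the growth protocols also speak of an mPGK promoter, and the titles were followed here.

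In a tet-Off system tTA binds tet operators in front of a minimal promoter and recruits the transcription machinery, and dox makes it let go. The piggyBac transposon places such reporters all over the genome, a design known as TRIP (reporters integrated in parallel), so the same promoter can be read in many chromatin settings. Position effects of this kind are known to follow the chromatin of the surrounding region, with active, gene-rich regions favouring expression and regions attached to the nuclear lamina disfavouring it.

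Each reporter is told apart only by a random barcode of 16 bases in its transcript. The following 10 are shown because the results below turn on these integrations: for chromosomes 13 and 14, the 3 reporters with the highest RNA level at 100 ng/ml and the 2 strongest that gave no RNA there. Positions are in mm9 as deposited, each barcode was found in 1 pool only, and no base is set in capitals because the barcode has no functional part.
Chromosome 13, 21842010, minus strand, pool C, highest at 100 ng/ml: aacaaatggtagcgaa
Chromosome 13, 23831846, plus strand, pool C, highest at 100 ng/ml: tcattacatggaccct
Chromosome 13, 104860668, minus strand, pool D, highest at 100 ng/ml: ggtatgaccatgtcca
Chromosome 13, 48663520, plus strand, pool C, no RNA at 100 ng/ml: aatgatatcctgcaca
Chromosome 13, 55516784, plus strand, pool A, no RNA at 100 ng/ml: tccccaataaaacaca
Chromosome 14, 99730504, minus strand, pool B, highest at 100 ng/ml: actaagaatctaaacg
Chromosome 14, 99740265, minus strand, pool A, highest at 100 ng/ml: aacgatttgaacctag
Chromosome 14, 55697333, plus strand, pool C, highest at 100 ng/ml: ttctacagctgatagc
Chromosome 14, 122112981, plus strand, pool B, no RNA at 100 ng/ml: gggacgcgaccgaatg
Chromosome 14, 70396262, plus strand, pool C, no RNA at 100 ng/ml: agattcagtagcaggg

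The barcodes of a pool do not repeat within it among the members (0 cases), and 87 member barcodes also occur in another pool, where 3 of them map to the same chromosome. Pool A held 282 members, pool B 305, pool C 439 and pool D 418. RNA libraries had totals of 729552 to 1840870 counts and DNA libraries 928128 to 1571280. The median RNA count of a member fell from 150 to 262.5 across libraries without dox to 22 to 62 at 0.1 ng/ml and 0 at 100 ng/ml, against DNA medians of 232 to 529. Members took 11.8% to 14.9% of the DNA counts. Counts are PCR reads with no molecular identifier, and the intervals and floors given here therefore cover no more than counting error.

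The 3 chromosomes carried reporters as densely as the rest of the genome. There were 4.64 per Mb on chromosome 13, 4.32 on chromosome 14, 4.66 on chromosome 18 and 4.40 on the other 16 autosomes, and 710 of the members were on the plus strand. Their median DNA counts without dox were also close, with 314.5, 323.5 and 312 per reporter on chromosomes 13, 14 and 18 and 329.5 on the other 16.

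Without dox the 3 chromosomes stood about equally low. A level is the log2 ratio of RNA to DNA share of a library, averaged over both cultures and set against the mean of all autosomal reporters of that pool and dose. The chromosome level minus the mean of the other 18 autosomes was −0.289 ± 0.069 for chromosome 13, −0.320 ± 0.105 for chromosome 14 and −0.304 ± 0.048 for chromosome 18 (SD, n = 4 pools). In pools A, B, C and D, chromosome 13 stood at −0.230, −0.356, −0.228 and −0.340, chromosome 14 at −0.202, −0.454, −0.338 and −0.287, and chromosome 18 at −0.333, −0.282, −0.354 and −0.247. All 12 of these values are below the rest, and the ranges of the 3 chromosomes overlap. They held ranks 5, 3 and 4 from the lowest of 19 autosomes.

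Nearly all members gave RNA without dox. On chromosome 13, 95.6% of reporters had 10 or more RNA counts in both cultures without dox, on chromosome 14 94.4% and on chromosome 18 95.0%, against 95.8% on the other 16 and 95.6% over all reporters tested. The whole distribution sat lower. The median reporter was at −0.15, −0.21 and −0.14 on chromosomes 13, 14 and 18 and at 0.20 on the others, and the upper quartile was at 1.09, 1.20 and 1.00 against 1.51. Spread among reporters of 1 chromosome was far wider than the difference between chromosomes, with a noise-corrected SD of 1.85, 2.01 and 1.85.

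At 0.01 ng/ml the values were −0.282 ± 0.068, −0.374 ± 0.066 and −0.298 ± 0.080 for chromosomes 13, 14 and 18 against the other autosomes (SD, n = 4). Chromosome 13 was at −0.445 ± 0.199 at 0.1 ng/ml (limma adjusted p = 0.0181 over 19 autosomes), chromosome 14 at −0.446 ± 0.312 (adjusted p = 0.0277) and chromosome 18 at −0.414 ± 0.135 (adjusted p = 0.0181), each below the rest in 4 of 4 pools. These tests use the same integrations as the levels that chose the chromosomes, so they are not independent of that choice. Nor were such calls particular to them. At 0.1 ng/ml chromosomes 3 and 12 were also called below the rest, and chromosomes 4, 7, 11, 17 and 19 above it. None of the calls on chromosomes 13, 14 and 18 was stable to the choice of pools or depth. A DNA minimum of 100 gave −0.351 (limma adjusted p = 0.129), −0.396 (0.104) and −0.394 (0.104), and each chromosome lost its call when single pools were left out. For chromosome 13 the values without pool C or D were −0.459 and −0.357 (limma adjusted p = 0.05 and 0.075), for chromosome 14 without A or B −0.509 and −0.292 (0.0654 and 0.158), and for chromosome 18 without A, B or C −0.363, −0.393 and −0.434 (0.0625, 0.0622 and 0.0596).

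At 100 ng/ml the 3 values were further apart. Chromosome 13 was the lowest of the 19 autosomes, at −0.497, −0.711, −0.357 and −0.765 in pools A, B, C and D (mean −0.583 ± 0.190, SD, n = 4; limma adjusted p = 0.0024). Chromosome 14 was at −0.114, −0.628, −0.442 and 0.0748 (mean −0.277 ± 0.317, limma adjusted p = 0.144), below the rest in 3 of 4 pools. Chromosome 18 was at −0.308, −0.325, 0.0499 and 0.132 (mean −0.113 ± 0.238, limma adjusted p = 0.537), below in 2 of 4. Of the 3, only chromosome 13 passed the test there, and the call ended without pool A (−0.611, limma adjusted p = 0.096). Among the other autosomes, chromosomes 11 (0.743, limma adjusted p = 0.00012) and 17 (0.500, 0.0091) passed, both above the rest. With means of 1 Mb blocks in place of single reporters, chromosome 14 passed as well (−0.415, limma adjusted p = 0.0164).

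**Figure D1:**
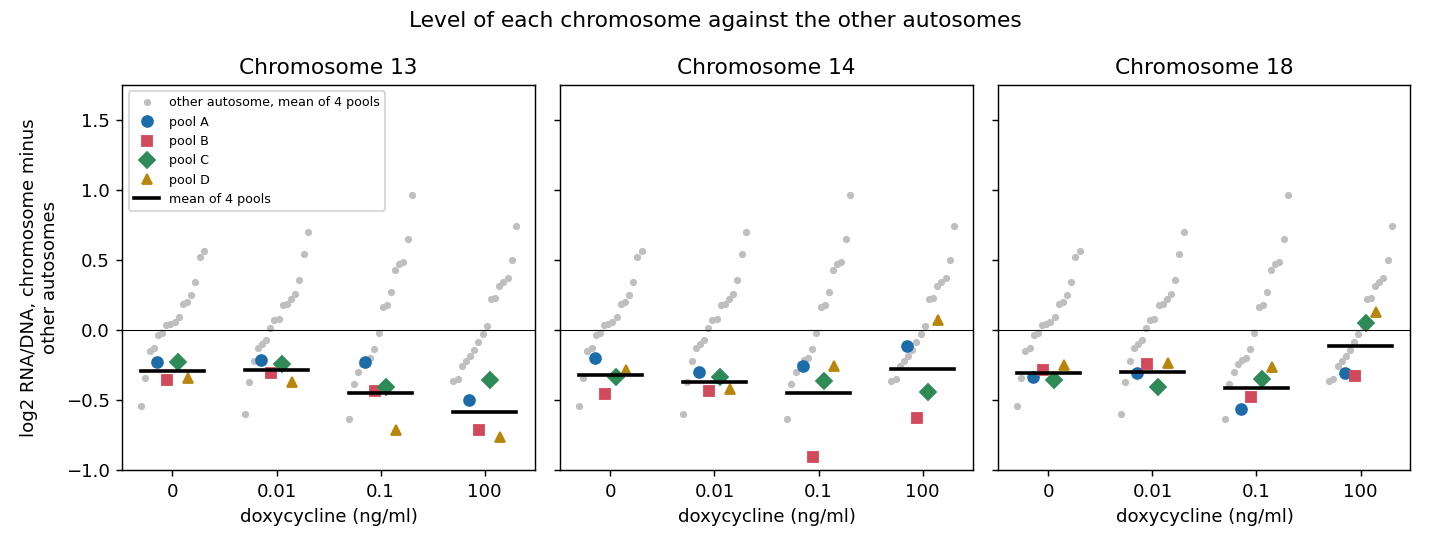
Mean log2 RNA/DNA of each chromosome minus the other autosomes (vertical axis) at the 4 dox doses (horizontal axis, ng/ml); coloured symbols are the 4 pools, black lines their mean and grey points the other 16 autosomes. All 4 pools of each chromosome lie below 0 up to 0.1 ng/ml, and at 100 ng/ml only chromosome 13 keeps all 4 below.

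The differences among the 3 themselves did not pass a test. Over 12 comparisons (3 pairs at 4 doses) the largest was at 100 ng/ml, where chromosome 13 minus chromosome 18 was −0.175, −0.361, −0.386 and −0.855 in the 4 pools (mean −0.444 ± 0.289, lower in 4 of 4). Its exact two-sided sign permutation p was 0.125, the smallest that 4 pools allow, and 0.75 after Benjamini-Hochberg adjustment over the 12. Those 12 include the pairs without dox, whose values are given only as a description. Without dox the differences of the pairs were 0.031 ± 0.081 (13 minus 14), 0.018 ± 0.110 (13 minus 18) and −0.013 ± 0.119 (14 minus 18; SD, n = 4 pools), each smaller than its spread over pools.

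Most members had a lower share of RNA at 100 ng/ml than without dox. Relative to no dox, edgeR's quasi-likelihood test called 754 of 1444 members lower at 100 ng/ml (52.2%; 50.4% of all reporters tested were called lower) and 138 higher (9.56%; 10.9% of all). By chromosome, 298 of 541 (55.1%), 256 of 500 (51.2%) and 200 of 403 (49.6%) were lower on chromosomes 13, 14 and 18, and 44, 50 and 44 were higher. Without the first no-dox culture the 50 of chromosome 14 became 30. These shares lie near the background, chromosome 13 a little above it for lower and a little below it for higher calls. With a DNA minimum of 100, where fewer members are tested, 495 of 980 were lower. Of the 754 lower members, 671 had no RNA count in either culture at 100 ng/ml (89.0%; 86.4% on the other autosomes). Of the 138 higher ones, 135 kept 10 or more counts in both cultures (97.8%; 99.0% on the other autosomes).

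RNA libraries are scaled to each other by trimmed means (TMM), so "higher" means more RNA per DNA relative to that scaling. The amount of RNA per cell is not measured. Nor does a call show a larger share of the pool's RNA: at 100 ng/ml 138 members were higher with TMM and 69 with library totals. At 0.1 ng/ml 314 members were lower (21.7%; background 19.8%) and 119 higher (8.24%; background 9.07%), so 27.5% of the calls were higher, against 9.75% (509 lower and 55 higher) when only library totals were used. Leaving out the first no-dox culture gave 181 lower and 65 higher, and leaving out the second 172 and 62. The fitted median change over all reporters moved from −0.80 with TMM to −0.255 under DESeq2 size factors and −1.96 under library totals, and at 100 ng/ml from −4.12 to −3.54 and −5.15.

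With RNA sums under 3 counts set to a floor of 3, the median log2 change in RNA per DNA over library totals from 0 to 100 ng/ml was −3.77 on chromosome 13, −3.40 on chromosome 14, −3.36 on chromosome 18 and −3.51 over all reporters. Those medians rest on the floor for 303, 259 and 203 members, so they are bounds on the fall in read share. At 0.01 ng/ml edgeR called 0 members (0.0% of all reporters lower, 0.0185% higher), with 62 members at an unadjusted p under 0.05 in edgeR (4.29%; 5.00% on the other autosomes), and DESeq2's Wald test called 1 lower and 6 higher.

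Of 320 members with no RNA in either culture at 0.1 ng/ml (22.2%; 18.5% of all reporters), 276 had none at 100 ng/ml (86.2%; 87.7% on the other autosomes) and 1 kept RNA there (0.312%; 0.806%).

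A member is called kept when it has 10 or more RNA counts in both cultures at 100 ng/ml. On chromosome 13, 122 of 541 were kept (22.6%, Wilson 95% interval 19.2% to 26.3%), on chromosome 14 131 of 500 (26.2%, 22.5% to 30.2%) and on chromosome 18 119 of 403 (29.5%, 25.3% to 34.2%), against 29.1% of all reporters. In pools A, B, C and D the kept share of chromosome 13 was 25.2%, 23.7%, 23.5% and 18.7%. The other 16 autosomes had 30.7%, 32.5%, 28.8% and 27.6% there, so chromosome 13 was below them in each pool. Chromosome 14 had 30.0%, 21.3%, 25.0% and 28.6%. Chromosome 18 ran from 22.2% (A) and 25.3% (B), below the others, to 32.0% (C) and 35.1% (D), above them. Intervals treat reporters as independent, although neighbours resemble each other.

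At 0.01 ng/ml 1280 of the 1444 members had such counts (88.6%; 90.3% of all reporters), and at 0.1 ng/ml 806 (55.8%; 59.8% of all). At the other end, 54.3% of reporters on chromosome 13, 50.8% on chromosome 14 and 48.6% on chromosome 18 had no RNA in either culture at 100 ng/ml, against 48.4% of all. A further 21.1%, 21.8% and 20.3% had RNA in 1 culture only. The step from 0.1 to 100 ng/ml can be read in the same counts. Of the 305 reporters on chromosome 13 with RNA in both cultures at 0.1 ng/ml, 116 were kept at 100 (38.0%), of 276 on chromosome 14 125 (45.3%), of 225 on chromosome 18 112 (49.8%), and 46.7% on the other 16 autosomes.

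**Figure D2:**
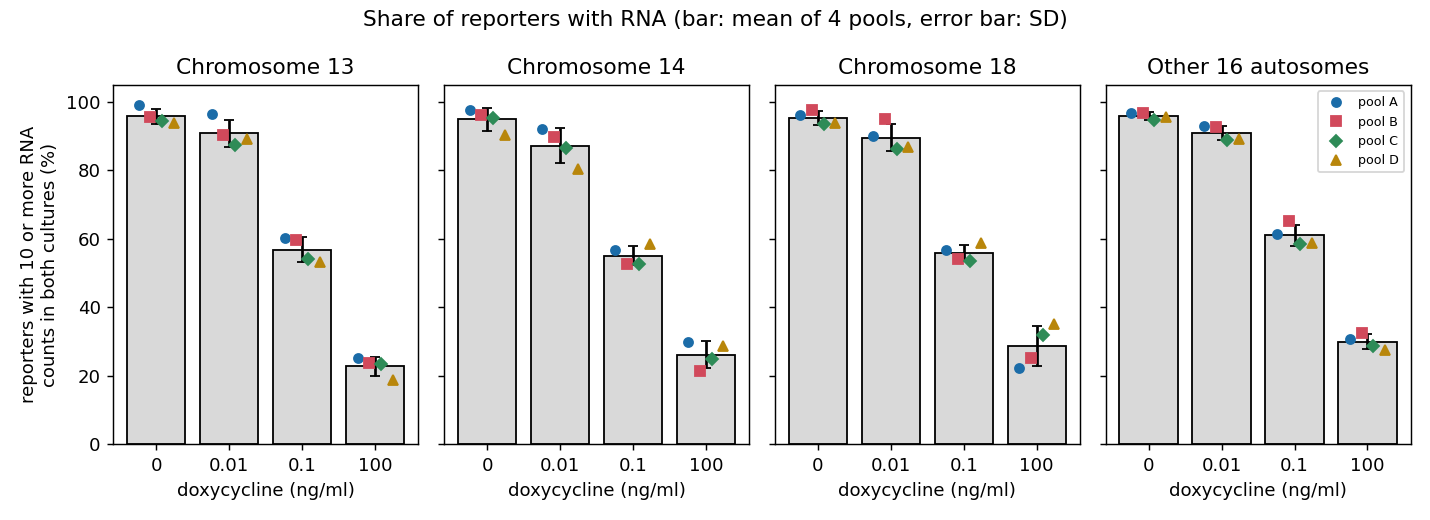
Percentage of reporters with 10 or more RNA counts in both cultures (vertical axis) at each dox dose (horizontal axis, ng/ml) on the 3 chromosomes and the other 16 autosomes; bars are means of 4 pools, error bars the SD and symbols the pools. The bars start near 95% without dox and end between 22.8% on chromosome 13 and 29.9% on the other 16.

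Kept reporters were the stronger ones before dox. Their median level without dox was 1.25 on chromosome 13, 1.27 on chromosome 14 and 1.05 on chromosome 18, against −0.51, −0.72 and −0.79 for those not kept. Kept reporters also had more DNA counts, with medians of 423.75, 380 and 375 per reporter without dox against 305, 300.5 and 291, and the part of DNA depth in passing the count threshold was not tested. As means over pools, the kept share was 22.8%, 26.2% and 28.7%, and 26.7%, 30.4% and 32.4% with a DNA minimum of 100 in every library.

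Most kept members had no call, which does not show that they stayed level. In simulated counts over all reporters, edgeR recovered 6.5% of log2 changes of −2 and 12% of 2. That simulation left 9985 of 10785 reporters unchanged, unlike these data. Its rates therefore do not give the share of changes found among kept members. On chromosome 13, 66 of 122 kept reporters had no call at 100 ng/ml, 43 were higher and 13 lower. On chromosome 14 it was 70, 48 and 13, and on chromosome 18 64, 44 and 11. Together these were 53.8%, 36.3% and 9.95% of the kept members, near the 52.8%, 37.1% and 10.1% of kept reporters on the other autosomes.

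The strongest reporter of chromosome 13 at 100 ng/ml was the one at 21842010 (pool C). Its RNA counts in the 2 cultures were 1274 and 1565 without dox, 1881 and 2274 at 0.01, 12966 and 10333 at 0.1 and 51583 and 43959 at 100 ng/ml, on DNA counts of 362 and 411 without dox and 247 and 354 at 100. Both cultures rise at each step from 0.01 ng/ml on and the doses do not overlap. Its log2 change at 100 ng/ml was 7.17 ± 0.49 (SE, edgeR adjusted p = 1.03e-06). Alone it took 5.10% to 5.54% of the RNA of pool C at that dose.

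The share of a pool's RNA that came from chromosome 13 differed between pools. In pools A, B and D the chromosome's share of RNA at 100 ng/ml was 0.270 to 0.480 of its share of DNA, and in pool C it was 1.58 and 1.44 in the 2 cultures. In pool C the chromosome held 8.25% and 7.71% of the RNA, and 2.87% and 2.75% with that reporter set aside. The log2 level of the chromosome, which averages over reporters, was below the other autosomes in pool C too (−0.357, above).

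The next 2 of chromosome 13 lay at 23831846 (pool C) and 104860668 (pool D). The first had 851 and 1004 RNA counts without dox and 8173 and 6710 at 100 ng/ml (log2 change 4.35 ± 0.54, edgeR adjusted p = 4.33e-05). The second went from 1042 and 1168 to 6395 and 7190 (3.97 ± 0.48, adjusted p = 4.24e-05 with edgeR). In both, every count at 100 ng/ml is above every count without dox.

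A different kind of rise was seen at 91063891 on chromosome 13 (plus strand, pool A), which was chosen for its fitted change. It was among the weak reporters without dox, with 19 and 44 RNA counts on 372 and 502 DNA counts, 3.13 below the pool mean on the log2 scale. At 0.1 ng/ml it had 359 and 566 RNA counts and at 100 ng/ml 307 and 1173, and its log2 change was 6.22 ± 0.85 (SE, edgeR adjusted p = 9.81e-05).

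On chromosome 14 the 2 strongest reporters at 100 ng/ml lay within 9.8 kb of each other in different pools. The reporter at 99730504 (pool B) had 2007 and 2318 RNA counts without dox, 11487 and 12208 at 0.1 and 16212 and 25837 at 100 ng/ml. The reporter at 99740265 (pool A) had 3030 and 4110, then 37703 and 35065, then 59920 and 57755. In both, the counts at the 3 doses do not overlap, and the log2 changes of 6.00 ± 0.43 (SE, edgeR adjusted p = 1.57e-06) and 5.84 ± 0.51 (adjusted p = 5.22e-06) are alike. The third was the plus-strand reporter at 55697333 (pool C), also the highest of the chromosome without dox among those with 100 or more DNA counts in both cultures, with 4273 and 4840 RNA counts there and 8292 and 8350 at 100 ng/ml (3.37 ± 0.38, edgeR adjusted p = 2.2e-05).

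The strongest reporters of chromosome 18 at 100 ng/ml included another pair of neighbours in different pools, at 75370279 (pool B) and 75414491 (pool C), both on the plus strand. The first had 2297 and 2473 RNA counts without dox and 20098 and 25004 at 100 ng/ml on 1130 to 1671 DNA counts in every library (log2 change 5.69 ± 0.24, edgeR adjusted p = 1.5e-07). The second had 1185 and 1156 and then 3848 and 3757, but its DNA counts at 100 ng/ml were 15 and 278, so its ratio is poorly fixed. Its log2 change was 3.86 ± 1.11 (edgeR adjusted p = 0.0102), and the call ended without the second no-dox culture (adjusted p = 0.101).

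On chromosome 18, another pair of reporters with large fitted changes began below the pool mean, both in pool C. The reporter at 37778944 went from 247 and 273 RNA counts to 3769 and 3130 (log2 change 5.83 ± 0.63, edgeR adjusted p = 1.66e-05). The reporter at 64673145 went from 122 and 142 to 2085 and 2345 (5.73 ± 0.40, edgeR adjusted p = 1.03e-06). In both, the groups are well apart, and the counts at 0.1 ng/ml lie between them.

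**Figure D3:**
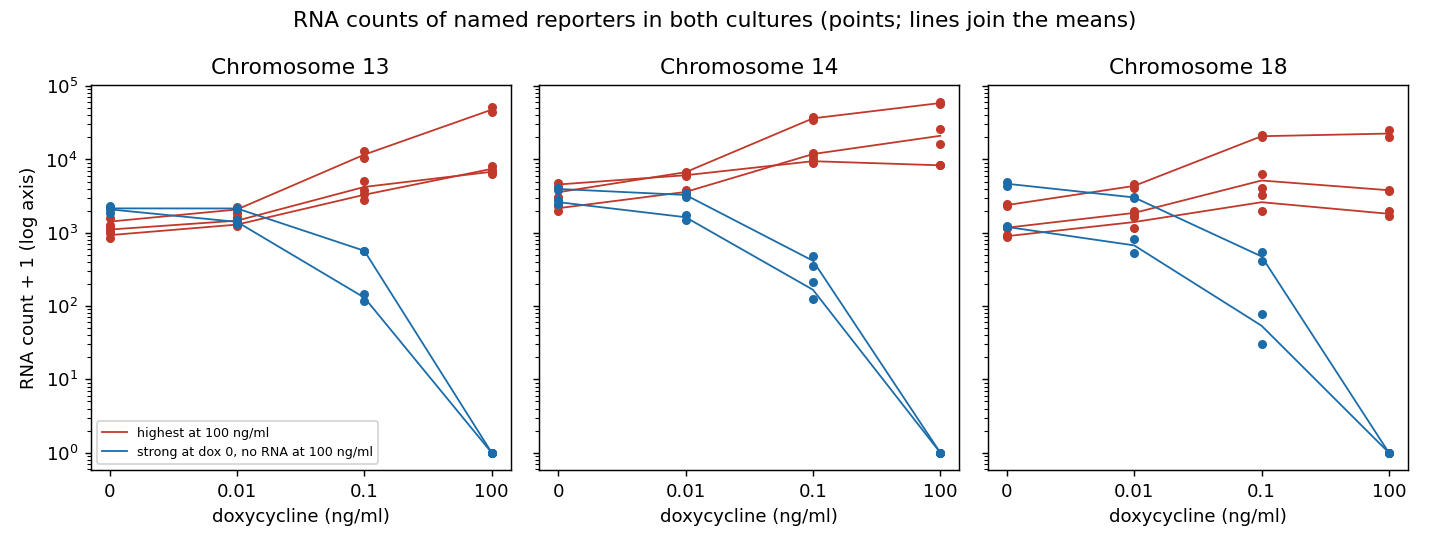
RNA count plus 1 (log axis) at each dox dose (horizontal axis, ng/ml) for the 3 reporters per chromosome with the highest level at 100 ng/ml (red) and the 2 strongest without RNA at 100 ng/ml (blue); points are the 2 cultures and lines join their means. The blue reporters were chosen for high RNA counts without dox. They start above the red ones on chromosome 13, as does the one at 46686622 on chromosome 18. At 0.1 ng/ml all blue counts lie below all red counts of the same chromosome.

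Other reporters that began as strong lost all RNA. On chromosome 13 the one at 48663520 (pool C) had 2110 and 2191 RNA counts without dox, 2150 and 2139 at 0.01, 563 and 570 at 0.1 and 0 and 0 at 100 ng/ml. The one at 55516784 (pool A) had 1866 and 2306, 1321 and 1493, 115 and 144, and then 0 and 0. Against a floor of 3 counts over both cultures, their share of RNA per DNA was at least 649-fold and 1115-fold lower.

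The same course was seen on the other 2 chromosomes. On chromosome 14 the reporter at 122112981 (pool B) went from 4122 and 3793 counts through 478 and 350 at 0.1 ng/ml to 0 and 0 (at least 1632-fold lower). On chromosome 18 the reporter at 46686622 (minus strand, pool C) went from 4388 and 4935 through 545 and 405 to 0 and 0 (at least 2227-fold). Without dox, the lost reporter at 122112981 stood higher than the pair that was strongest at 100 ng/ml, at 3.54 above its pool mean against 2.64 and 2.35.

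On chromosomes 13 and 18 the strongest members without dox were not the strongest with it. Among those with 100 or more DNA counts in both cultures, the highest of chromosome 13 lay at 53331372 (plus strand, pool A), with 2365 and 2716 RNA counts on 311 and 198 DNA counts, 4.06 above the pool mean. At 100 ng/ml it had 209 and 197 RNA counts, and its log2 change was −3.00 ± 0.42 (SE, edgeR adjusted p = 0.000121). The highest of chromosome 18, at 61336002 (plus strand, pool B), had 2781 and 3503 RNA counts without dox and 0 and 48 at 100 ng/ml (−4.14 ± 1.36, edgeR adjusted p = 0.0205), a call that ended with either no-dox culture left out.

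The lowest members without dox by the same DNA count had ample DNA and almost no RNA. The reporter on chromosome 14 at 17147986 (plus strand, pool C) had 0 RNA counts in all 8 RNA libraries beside 1422 and 501 DNA counts without dox. That on chromosome 18 at 8009586 (plus strand, pool C) also had 0 in all 8. The chromosome 14 reporter at 75682903 (plus strand, pool B) had 0 RNA counts in 7 of 8 RNA libraries on 1467 and 1154 DNA counts, and 45 in 1 culture at 100 ng/ml. The test called it higher at 100 ng/ml, a call that rests on that 1 library.

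Along position, low and average stretches alternated on all 3 chromosomes. In windows of 5 Mb with at least 8 reporters, a mean at or below −1 without dox was called low. Low windows numbered 7 of 24 on chromosome 13 (29.2%), 8 of 22 on chromosome 14 (36.4%) and 3 of 17 on chromosome 18 (17.6%), against 21.7% of all autosomal windows. None of the 63 windows reached 1, a level that 10.2% of all autosomal windows reached. The windows were counted without dox, the values that chose the chromosomes, so these counts are a description.

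The low windows of chromosome 13 formed 5 domains. The widest covered the first 15 Mb, with 53 reporters at a mean of −1.30 ± 0.28 (SE over reporters), but the pools differed there, with −0.340 (A), −2.22 (B), −0.403 (C) and −1.96 (D). The lowest was the window from 85000001 to 90000000, at −2.14 ± 0.41 over 18 reporters, where pools A to D stood at −2.41, −2.10, −2.31 and −1.83 and 16 of 18 reporters were below the mean. That from 25000001 to 30000000 stood at −1.99 ± 0.39 over 15 reporters. All 4 pools were below −1 in both of these last windows.

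Among windows with at least 8 reporters, chromosome 14 had the lowest means of the 3 chromosomes. The windows from 110000001 to 115000000 (10 reporters) and from 15000001 to 20000000 (13 reporters) stood at −2.66 ± 0.67 and −2.66 ± 0.88. Pool B stood apart in both, at 0.97 in the first and −0.22 in the second, against −4.38 to −2.65 and −3.15 to −2.66 in the other pools. In the first window 0.97 was also the highest level of any reporter, so the pool B value there rests on a single integration. They belong to domains from 105000001 to 120000000 (39 reporters, −1.65 ± 0.31) and from 10000001 to 20000000 (24 reporters, −2.14 ± 0.50). Of the 39 reporters in the first of these domains, 30 were below the mean, 29 had no RNA at 100 ng/ml and 3 kept it. The third wide domain, from 80000001 to 90000000, stood at −1.74 ± 0.45 over 22 reporters.

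Chromosome 18 had 3 single low windows. That from 15000001 to 20000000 stood at −1.78 ± 0.60 over 13 reporters, that from 25000001 to 30000000 at −1.46 ± 0.52 over 12, and that from 40000001 to 45000000 at −1.34 ± 0.31 over 27. The window from 85000001 to 90000000 stood lower, at −2.81 ± 0.49, but held only 6 reporters from 3 pools and was not counted. The highest windows were modest, at 0.87 ± 0.35 on chromosome 13 (50000001 to 55000000), 0.66 ± 0.31 on chromosome 14 (65000001 to 70000000) and 0.84 ± 0.29 on chromosome 18 (75000001 to 80000000).

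**Figure D4:**
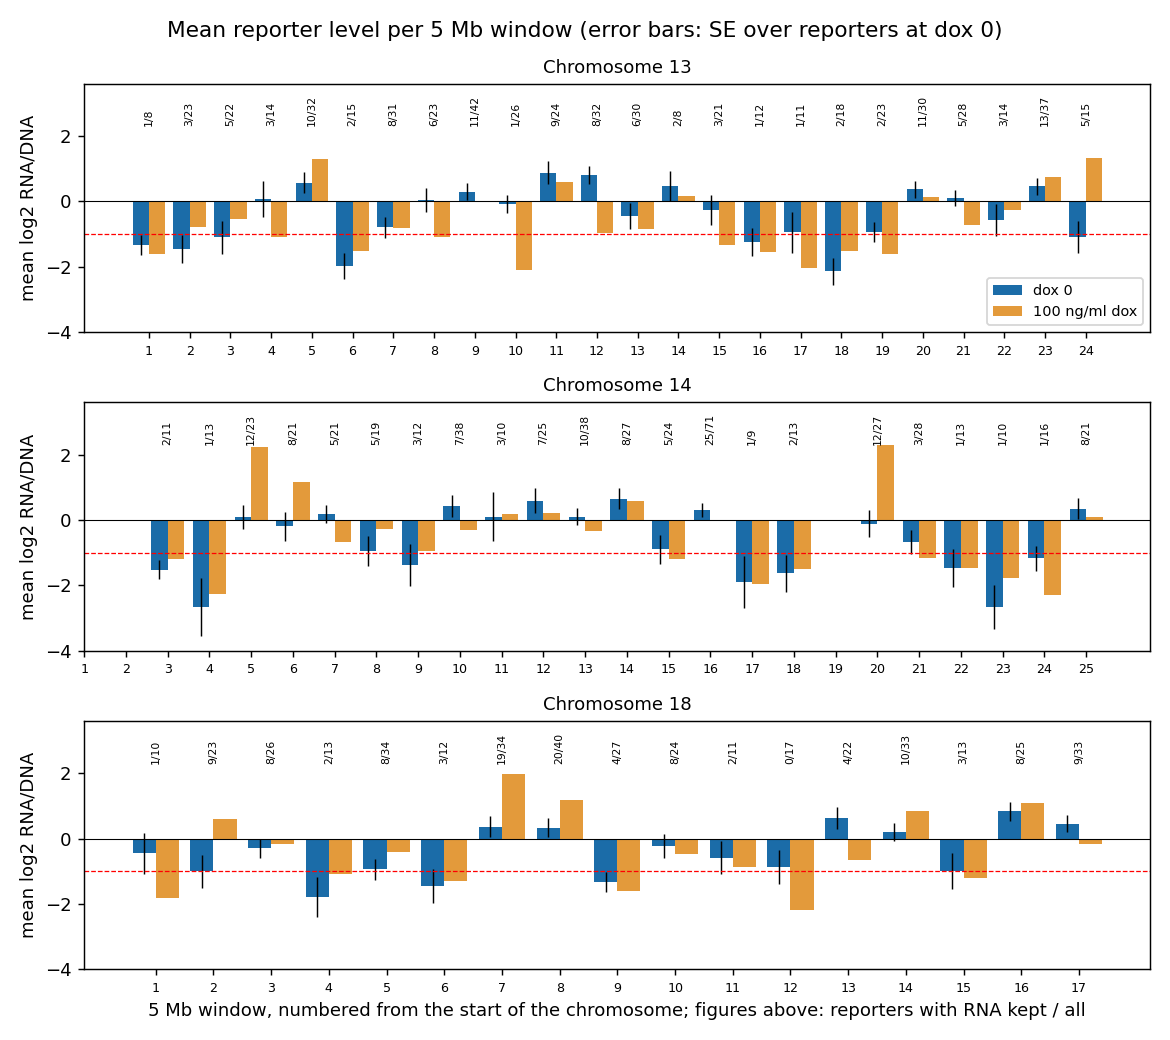
Mean log2 RNA/DNA per 5 Mb window with 8 or more reporters (vertical axis), in order along each chromosome (horizontal axis), without dox (blue, error bars SE over reporters) and at 100 ng/ml (orange); the dashed line marks −1 and the fractions give reporters with RNA kept over all. No blue bar reaches 1, and the last window drawn for chromosome 13 (115000001 to 120000000) is below −1 without dox and at 1.34 at 100 ng/ml.

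The spanned length of each chromosome was also cut into 3 equal parts. Values are means over all reporters of a part, ± the SD of the 4 pool means. Chromosome 18 stood at −0.92 ± 0.26 in the proximal part, −0.17 ± 0.37 in the middle and 0.19 ± 0.33 in the distal part. Chromosome 14 was low at both ends, at −0.59 ± 0.43 and −0.78 ± 0.45, around 0.12 ± 0.26 in the middle. The pool means of its ends overlap, from −1.05 to −0.17 and from −1.15 to −0.20. Chromosome 13 had the same shape at smaller size, with −0.48 ± 0.25, 0.07 ± 0.14 and −0.38 ± 0.15. Its middle part, close to the pool mean without dox, was the lowest of all 9 parts at 100 ng/ml, at −0.94, with 33 of 170 reporters kept (19.4%).

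Kept shares were lower in low windows than in the other counted windows. On chromosome 13 it was 19 of 113 (16.8%) against 23.9%, on chromosome 14 12 of 97 (12.4%) against 30.0%, and on chromosome 18 9 of 52 (17.3%) against 31.6%. Over all autosomes the shares were 13.4% and 31.7%. Reporters of 1 window share their surroundings, so these shares are a description.

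The last low window of chromosome 13, from 115000001 to 120000000, went the other way, and was singled out after its values were seen. Its 15 reporters stood at −1.09 ± 0.50 without dox (SE) and at 1.34 at 100 ng/ml. The latter mean is carried by its 5 kept reporters (4.97 to 8.97): the median of the 15 was −0.83, and 10 were not kept. All 5 of its kept reporters lay in the first 365.5 kb of its reporters, on the plus strand, in pools A, B and D. All 5 were called higher relative to the TMM scaling. The one at 115384448 (pool A) had 584 and 614 RNA counts without dox and 2201 and 2307 at 100 ng/ml, and that at 115058191 (pool B) 97 and 136 and then 301 and 711. Both sets of counts are apart. So are those at 115080235 (pool D), with 47 and 38 and then 151 and 86. The reporter at 115018918 (pool D) had 283 and 311 and then 733 and 471. Its DNA counts at 100 ng/ml were 17 and 97, so its ratio is poorly fixed. At 115059724 (pool D) the RNA counts overlap, with 416 and 449 and then 422 and 238. Its DNA counts overlap too, with 425 and 334 and then 243 and 395. Its rise (log2 change 1.68, edgeR adjusted p = 0.0303) is thus one relative to the TMM scaling. Among these 5 stood 2 minus-strand reporters that were not kept, at 115201527 (pool C), with 38 and 55 counts without dox and 0 and 0 at 100 ng/ml, and at 115357820 (pool A), with 329 and 389 and then 0 and 91.

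Kept members clustered at short range, as kept reporters did on the other autosomes. Less than 10 kb from a kept reporter, the neighbour was kept in 63.9% of cases, and beside one that was not kept in 27.9% (194 pairs). For pairs whose members came from different pools it was 66.2% and 30.6% (140 pairs). These figures were 51.5% and 29.1% for pairs 10 to 100 kb apart and 34.9% and 28.0% for pairs 100 kb to 1 Mb apart. On the other autosomes they were 69.2% and 30.2% under 10 kb, 54.9% and 30.4% from 10 to 100 kb and 35.6% and 30.0% from 100 kb to 1 Mb. In the widest class chromosome 13 went the other way, with 21.0% beside a kept reporter and 25.8% beside one that was not kept.

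The likeness in level between such close pairs was computed at each dose. Over the 140 pairs from different pools, Pearson's r was 0.41 without dox, 0.49 at 0.01, 0.66 at 0.1 and 0.56 at 100 ng/ml. Over all pairs under 10 kb apart, r without dox and at 0.1 ng/ml was 0.51 and 0.78 on chromosome 13 (56 pairs), 0.28 and 0.47 on chromosome 14 (88 pairs) and 0.46 and 0.56 on chromosome 18 (50 pairs). On the other autosomes it was 0.34 and 0.60 (1249 pairs). Pairs share reporters, libraries and depth within a pool, and these values are descriptions across sites.

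Chains of reporters with gaps of at most 50 kb show the clusters. The chain with most kept members on chromosome 14 ran from 76789123 to 77097741, with 14 reporters from all 4 pools, of which 12 were kept. Of the 14, 10 had no call, 2 were higher and 2 lower. The fitted log2 changes of the uncalled ones ran from −1.34 to 2.34, so no call does not show that they stayed level. At 76889551 (plus strand, pool D), RNA counts rose from 332 and 280 to 1880 and 2076 (log2 change 4.24, edgeR adjusted p = 2.73e-05). At 76998696 (minus strand, pool B), they fell from 715 and 844 to 0 and 0, so a lost reporter stood among kept ones.

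On chromosome 13 the chain from 40944555 to 41073211 had 11 reporters from 4 pools, and 7 were kept. The 6 nearest its start were all kept, and of the 5 after them 1 was. On chromosome 18 the chain from 33955998 to 34067328 had 7 reporters from 3 pools, with 6 kept and 5 of them called higher. Its largest count was at 33991931 (minus strand, pool B), with 3275 and 3716 RNA counts without dox and 8087 and 11465 at 100 ng/ml.

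The chain that holds the top pair of chromosome 14, picked after its values were seen, ran 87.0 kb from 99724288 to 99811277 and had 9 reporters from all 4 pools. The first 7 were kept, at 6.14 to 11.33 above their pool means at 100 ng/ml, and 6 of them were called higher. The other kept one, at 99724288 (pool A), had 578 and 681 RNA counts without dox and 1674 and 1308 at 100 ng/ml and missed the threshold (edgeR adjusted p = 0.0711). The 2 at the far end, at 99808843 and 99811277 (both pool A), had 0 and 80 and 1 and 139 RNA counts at 100 ng/ml and were not kept. The last kept and the first not kept reporter of pool A were 55.5 kb apart.

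**Figure D5:**
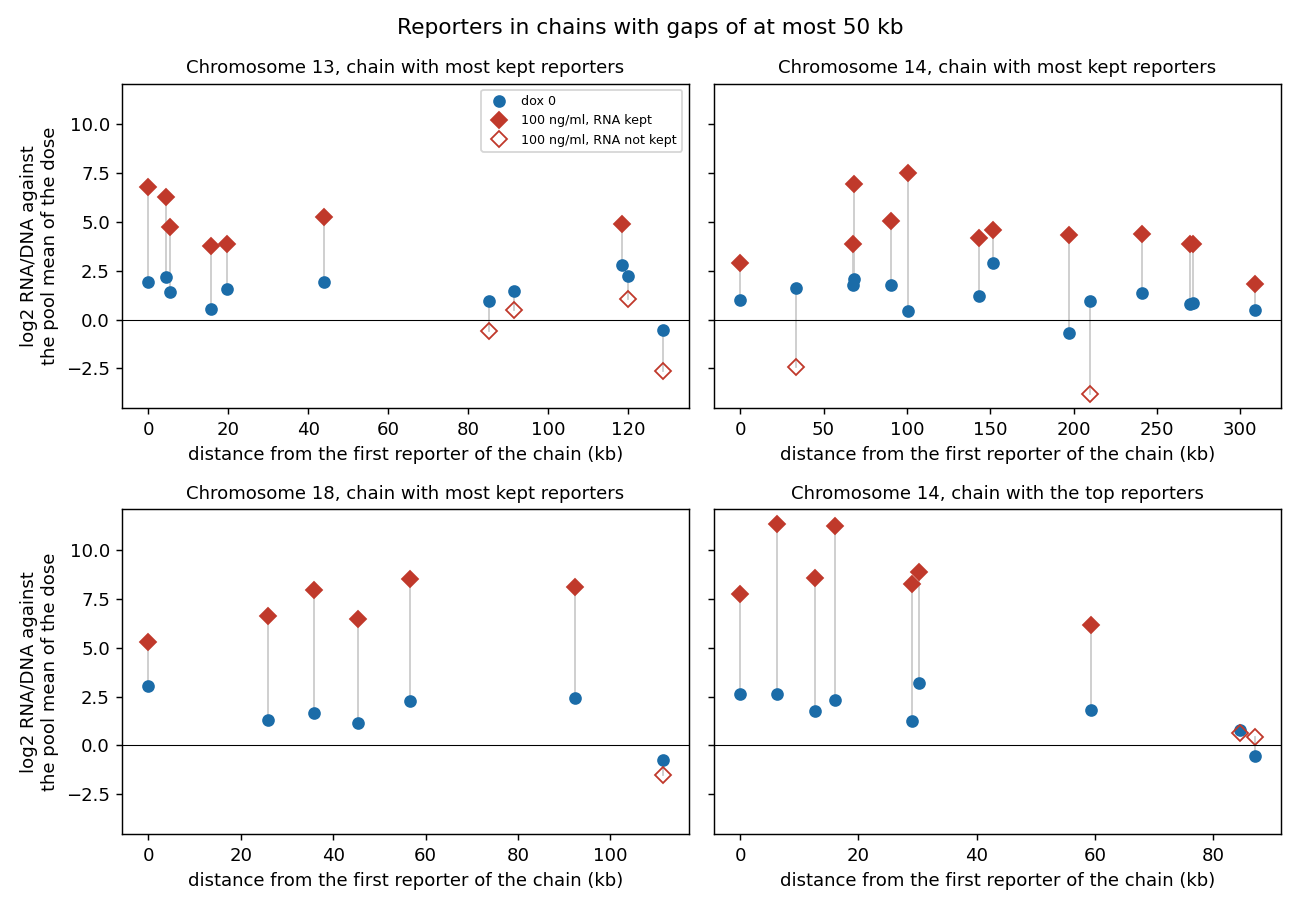
Log2 RNA/DNA against the pool mean of the dose (vertical axis) by distance from the first reporter (horizontal axis, kb) in 4 chains, without dox (blue) and at 100 ng/ml (red; open where RNA was not kept). In the chromosome 14 chain with the top reporters the 7 kept ones lie between 6.14 and 11.33 and the 2 at the far end near 0.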

How the data were processed

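RNA and genomic DNA barcodes were counted in 64 libraries (4 pools, 4 doses, 2 cultures); 16 mapping libraries enter through positions only. The authors deposited read counts per barcode, not normalized, with mm9 positions. Per the submitters' processing notes, Bowtie2 2.0 was used and the build is mm9; the calling of barcodes is not given in the sources used. The table had 0 columns of sample values left unused. No mm9 annotation was at hand, so genes and surrounding sequence were not analysed here.

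Each pool was fitted whole with edgeR 4.0.16 (R 4.3.3): assay, dose and their interaction over 16 libraries, TMM within assay, quasi-likelihood test, Benjamini-Hochberg adjustment within the pool at 0.05. The SE is the absolute log2 change divided by the square root of F. Levels are log2 RNA/DNA over library totals with a pseudocount of 1. Chromosome levels were tested with limma 3.58.1 over 19 autosomes and 4 pools, and pairs by exact sign permutation. In simulated counts for dox 100 against 0, 9985 of 10785 reporters were left unchanged. There edgeR recovered 42% of changes of −4, 6.5% of −2, 12% of 2 and 54% of 4 (log2). It called 0.2% of the unchanged reporters. The labels say that each culture was split over the doses, so culture numbers pair the libraries. Deviations of same-numbered cultures correlated by only −0.046 to 0.046 between doses. DESeq2 1.42.0 and Python 3.11.15 were also used.

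Members and lists were chosen with earlier results of these data known. Named per chromosome were the 3 highest kept reporters at 100 ng/ml, the 2 largest called rises with RNA and a higher ratio in both cultures, the 2 strongest called lower without RNA at 100 ng/ml, the 2 highest and 2 lowest without dox with 100 or more DNA counts, the 3 lowest windows and the highest, and the chain with most kept reporters. Alternatives changed the scaling, pseudocount, DNA minimum, window size, block design and the samples left out.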

Additional observations from a re-analysis of the deposited data

Results flagged for a closer look

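Of 45 sets of 4 pool values examined for a pool far from the others, 2 stood out, and chance gives about 1 in 20 (2.25 here). The level of chromosome 14 against the other autosomes at 0.1 ng/ml was −0.908 in pool B, with the other 3 pools between −0.365 and −0.253. The share of chromosome 13 reporters called lower at 100 ng/ml was 50.0% in pool B, with the other 3 between 56.0% and 56.8%.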

How the results depend on the processing

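Of 402 recomputed main values, 349 kept their direction, side of the threshold or size, 39 moved, 13 lost and 1 gained a call; the cause of a change was not tested. At 0.01 ng/ml the member calls were 1 higher with DESeq2 size factors and 1 lower and 6 higher with DESeq2's Wald test. At 0.1 ng/ml they were 509 lower and 55 higher with library totals, 170 and 79 with DNA as an offset, and 172 to 365 and 62 to 101 with 1 culture left out. At 100 ng/ml 495 of 980 members were lower with a DNA minimum of 100, where fewer reporters are tested, and 69 were higher with library totals. With the culture number as a replicate block, calls were 263 lower and 100 higher at 0.1 and 732 and 131 at 100 ng/ml; the block ended the call of the chromosome 13 reporter at 63985379 (pool B), which had at most 15 RNA counts in any library, and of no other named reporter.

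Chromosome 13 without dox was at −0.213 with a DNA minimum of 100 and at −0.401 at 0.01 ng/ml by medians; block means of 1 Mb gave chromosome 18 −0.249 without dox, chromosome 14 −0.489 at 0.01 and −0.415 at 100 ng/ml (limma adjusted p = 0.0164). At 0.1 ng/ml a DNA minimum of 100 gave −0.351, −0.396 and −0.394 for chromosomes 13, 14 and 18, and leaving out a culture or pool gave −0.517 to −0.357, −0.541 to −0.292 and −0.493 to −0.335. Calls also ended without culture 1 for chromosome 14 (−0.351, limma adjusted p = 0.113) and 18 (−0.335, 0.099). At 100 ng/ml chromosome 13 ranged from −0.658 to −0.522.

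For differences between the chromosomes, alternatives were added after seeing the data. Block means gave 0.139 (13 minus 14) and −0.153 (14 minus 18) without dox, and 0.215 and −0.224 at 0.01 ng/ml. A DNA minimum of 100 gave 0.132 (13 minus 18) without dox and 0.174 (13 minus 14) at 0.01 ng/ml, where medians gave 0.00383 and a pseudocount of 5 gave 0.0544.

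The kept share of chromosome 13 was 19.5% with 50 or more counts and 26.7% with a DNA minimum of 100, which gave 30.4% on chromosome 14. With 1 culture or pool left out it ran from 21.9% to 35.9%, 25.0% to 40.7% and 26.5% to 42.1% on chromosomes 13, 14 and 18. Where a culture was left out, 10 or more counts in the remaining culture sufficed, which is a looser rule than both cultures. Low windows numbered 4 on chromosome 13 and 5 on 18 with a DNA minimum of 100, 4 on 14 with 2 Mb windows, 5 on 18 with a pseudocount of 0.1, and 4 to 6 on 18 with 1 culture left out. Reporters with no or almost no RNA changed sign: with 1 culture left out, fitted changes at 100 ng/ml ran from −0.034 to 10.40 for 75682903 and from −0.633 to 0.73 for 17147986 on chromosome 14, and from −0.199 to 1.02 for 8009586 on chromosome 18. The median of 0 RNA counts at 100 ng/ml limits what can be said of single members there.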
